A study of Homo sapiens with 6 samples.

Results

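ACHN cells that had received a negative control siRNA, the group NC, were described by the genes they expressed and lacked 48 h after transfection. The members are the 2 libraries labelled NC, chosen by label, of 6 libraries in the series. The other 2 groups received an siRNA against MEX3A, either siMEX3A_1 or siMEX3A_2, for the same time, with 2 libraries each. ACHN is an established human renal cell adenocarcinoma line. Every library came from this 1 line, and a transfected control is not an untreated culture. The labels do not say if the paired libraries are separate cultures, so each p-value reflects how far these libraries spread, and that spread may be technical.

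Renal carcinomas arise from nephron epithelium. The nephron is built under transcription factors of the PAX, LHX and HOX families, and its segments are then told apart by transporters and receptors. The proximal tubule takes up protein through the megalin receptor, reabsorbs glucose and phosphate, secretes organic anions and makes glucose. Many renal carcinomas lose VHL function, which stabilizes the hypoxia-inducible factors, and shift towards glycolysis, glutamine use and lipid storage.

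Levels are CPM, the expected count of a gene per 1000000 counts of its library, and pairs of values are NC replicate 1 and NC replicate 2, in that order. A gene was called expressed at 1 CPM or more in both NC libraries, trace where it had any count but was not expressed, and undetected at 0 counts in both. CPM grows with transcript length, so the order of levels of different genes is given as CPM per kilobase (kb) of 1 reference transcript each. Genes named together with plain CPM are not ranked against each other by it. Agreement of the 2 libraries on an order per kilobase does not cover the choice of reference transcript. The NC libraries held 18879873 and 18996745 counts. A count of 0 allows up to 3 counts, or 0.159 and 0.158 CPM, a bound that covers counting error only. The 2 libraries differed by more than sampling noise (chi-square over its degrees of freedom 4.32), so they are not 1 set of counts deposited under 2 names. That does not show whether they came from separate cultures or from 1 RNA prepared again. Among 13524 expressed genes the median absolute log2 ratio between them was 0.10, from 0.06 in genes at 100 CPM or more to 0.19 in genes at 1 to 10 CPM. Mitochondrially encoded genes took 11.4% and 11.5% of the counts.

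Of 36517 genes with a usable name, 13524 (37.0%) were expressed, 8859 were trace and 14134 were undetected. Among the 18975 protein-coding genes 12402 (65.4%) were expressed, 4007 were trace and 2566 were undetected. Of the 15 highest named genes by mean CPM, 10 were mitochondrially encoded, among them MT-CO1, a subunit of cytochrome c oxidase, at 23425 and 23318 CPM. The nuclear genes among them were GAPDH (7026 and 7249 CPM) and PKM (3478 and 3587 CPM) of glycolysis, the elongation factor EEF1A1, the actin ACTB and the iron storage subunit FTH1.

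A set of 1062 genes in 51 lists covered family members, lineage factors, receptors, transporters and enzymes. Of these, 695 were expressed, 273 were trace and 94 were undetected. In 23 lists the share expressed was above the 65.4% of all protein-coding genes. Members of the lineage lists were expressed in 70.5% of cases, renal tumour genes in 82.2%, enzymes in 71.4%, receptors in 67.6%, transporters in 58.6%, nephron segment markers in 37.1% and markers of other tissues in 26.3%. Just inside the threshold lay ANGPT2 (1.11 and 1.02 CPM) and SIX2 (1.22 and 1.0 CPM). Just outside it lay ALDOC (0.953 and 1.38 CPM) and HIF3A (0.906 and 1.43 CPM), each of which passed in 1 library.

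**Figure D1:**
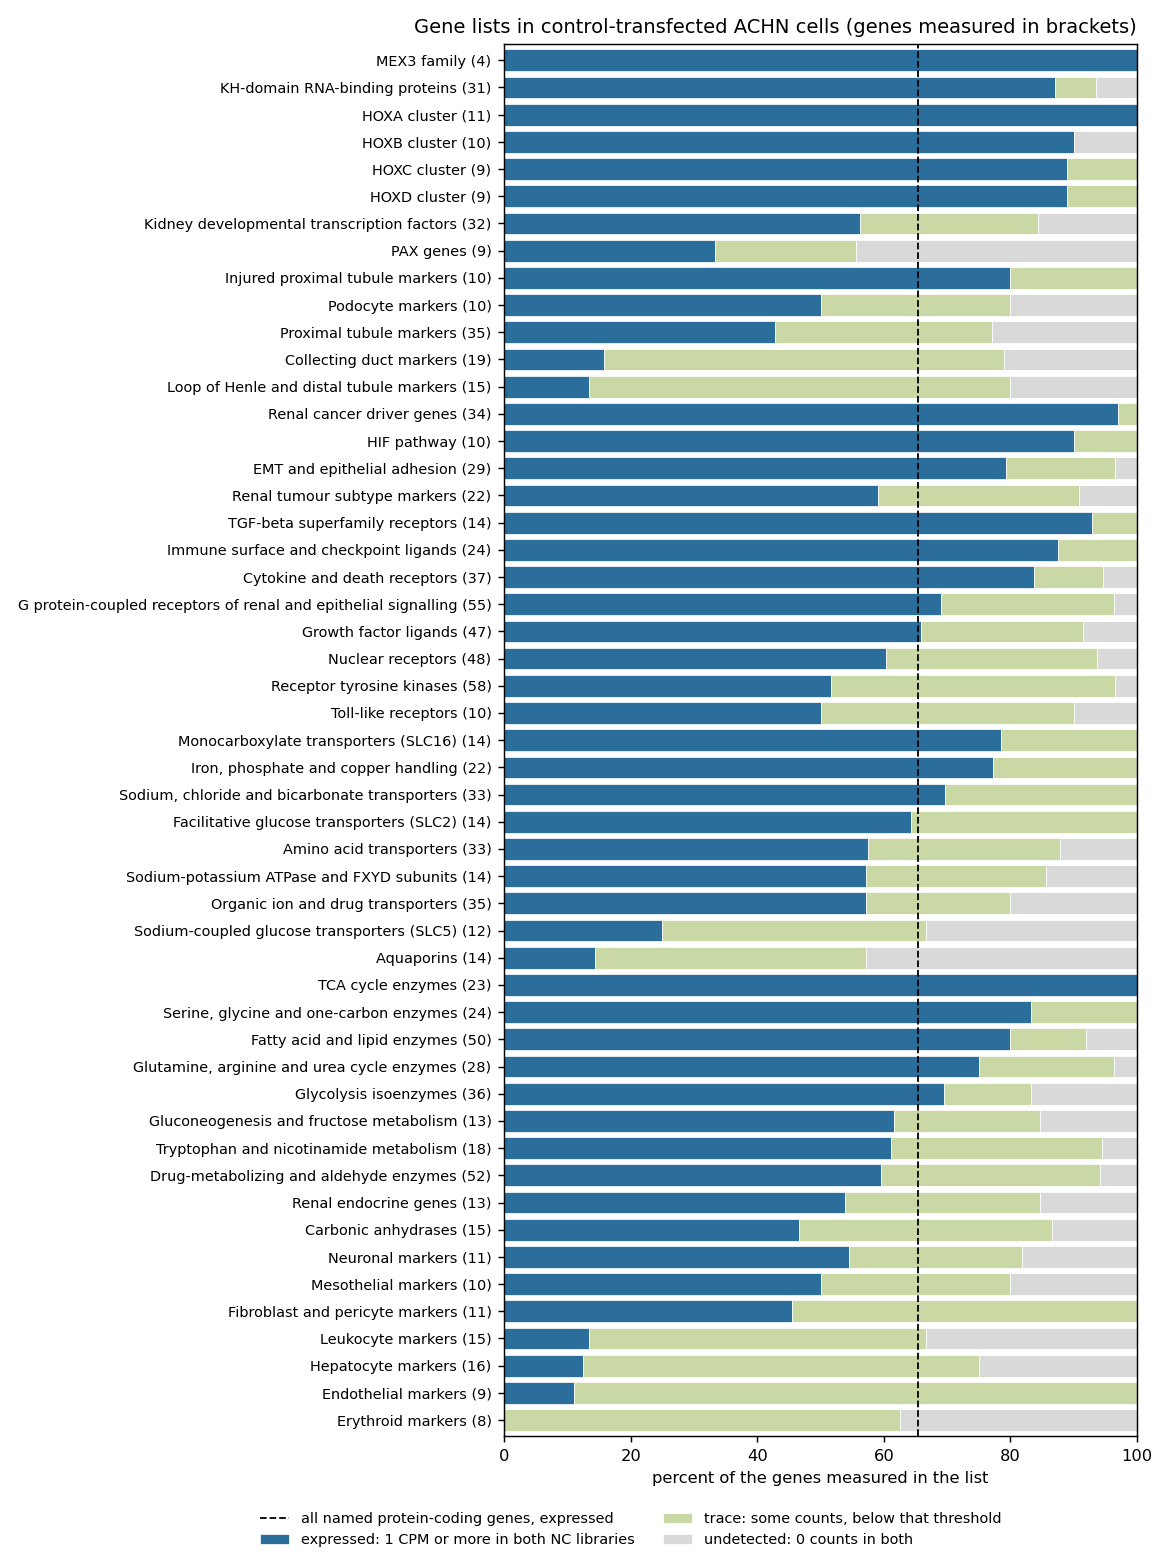
Each bar is 1 gene list in the NC libraries, split into the percent of its measured genes that were expressed (1 CPM or more in both libraries), trace or undetected. The dashed line marks the 65.4% of all named protein-coding genes that were expressed; all 4 MEX3 genes, all 11 HOXA genes and all 23 measured TCA cycle enzymes reach 100%, and the erythroid list has 0 expressed genes.

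The targeted gene was a low transcript in these cells. MEX3A encodes an RNA-binding protein with KH domains and a RING finger. It had 4.98 and 5.72 CPM in NC, 2.92 and 3.34 CPM with siMEX3A_1, and 3.88 and 4.06 CPM with siMEX3A_2. Both NC libraries were above all 4 siRNA libraries. Relative to NC its log2 fold change was -0.71 (SE 0.17, edgeR adjusted p = 0.0066) with siMEX3A_1 and -0.42 (SE 0.17, adjusted p = 0.064) with siMEX3A_2, which did not pass. DESeq2 did not call the first (-0.71, adjusted p = 0.0593), and with a minimum mean of 50 counts edgeR called the second (-0.43, adjusted p = 0.0489).

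All 4 MEX3 genes were expressed. Per kilobase MEX3C was highest (8.11 and 7.67 CPM per kb), followed by MEX3D (4.64 and 4.41), MEX3B (1.49 and 1.37) and MEX3A (0.813 and 0.933). No neighbours in this order overlapped between libraries. In plain CPM MEX3B (5.24 and 4.85 CPM) and MEX3A (4.98 and 5.72 CPM) did overlap, so their order rests on the reference lengths used, 3528 and 6124 nt. At a threshold of 5 CPM only MEX3C and MEX3D counted as expressed. Of 31 other KH-domain RNA-binding proteins 27 were expressed, among them HDLBP (vigilin) at 737 and 726 CPM, PCBP2 at 694 and 701 CPM and HNRNPK at 639 and 627 CPM. The oncofetal mRNA-binding IGF2BP proteins were uneven: IGF2BP2 had 70.6 and 71.3 CPM per kb, IGF2BP3 had 23.2 and 20.6, and IGF2BP1 had 1.23 and 1.13. The 4 KH genes that were not expressed were NOVA2 and PCBP3, at trace, and KHDRBS2 and DPPA5, at 0.

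Among 32 kidney developmental transcription factors 18 were expressed, 9 were trace and 5 were undetected. PAX8, the paired-box factor of the nephric lineage, had 812 and 870 CPM. PAX2, of the same family, had 133 and 144 CPM. At 10 to 100 CPM were, among others, the zinc-finger factor MECOM (27.4 and 22.6 CPM), LHX1, a LIM-homeobox factor of the nephric duct (13.4 and 13.2 CPM), and POU3F3 of the loop of Henle lineage (12.5 and 11.6 CPM).

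Several factors that mark mature or progenitor states were at trace or 0, while other factors of the list were expressed at 1 to 10 CPM. HNF4A, a regulator of proximal tubule genes, had 0.0556 and 0.444 CPM, while its paralog HNF4G had 8.57 and 9.12 CPM. WT1 of podocytes and nephron progenitors, EYA1 of progenitors, IRX1, TFAP2B and EHF had 0 counts in both libraries. By contrast, IRX2 (5.72 and 4.6 CPM), IRX3 (3.54 and 4.64 CPM) and TFAP2A (6.85 and 7.25 CPM) were expressed. So were SALL1 (7.79 and 7.53 CPM), OSR1 (4.61 and 5.84 CPM) and, just inside the threshold, SIX2. FOXI1 of intercalated cells had 1 library at 0.053 CPM, and GATA3 of the collecting duct had 0.106 and 0.0526 CPM. In the PAX family, PAX8 led per kilobase (196 and 209 CPM per kb), ahead of PAX2 (32.8 and 35.6) and PAX6 (2.21 and 2.45), with no overlap between neighbours. PAX9 and PAX5 were trace, and PAX1, PAX3, PAX4 and PAX7 were undetected.

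**Figure D2:**
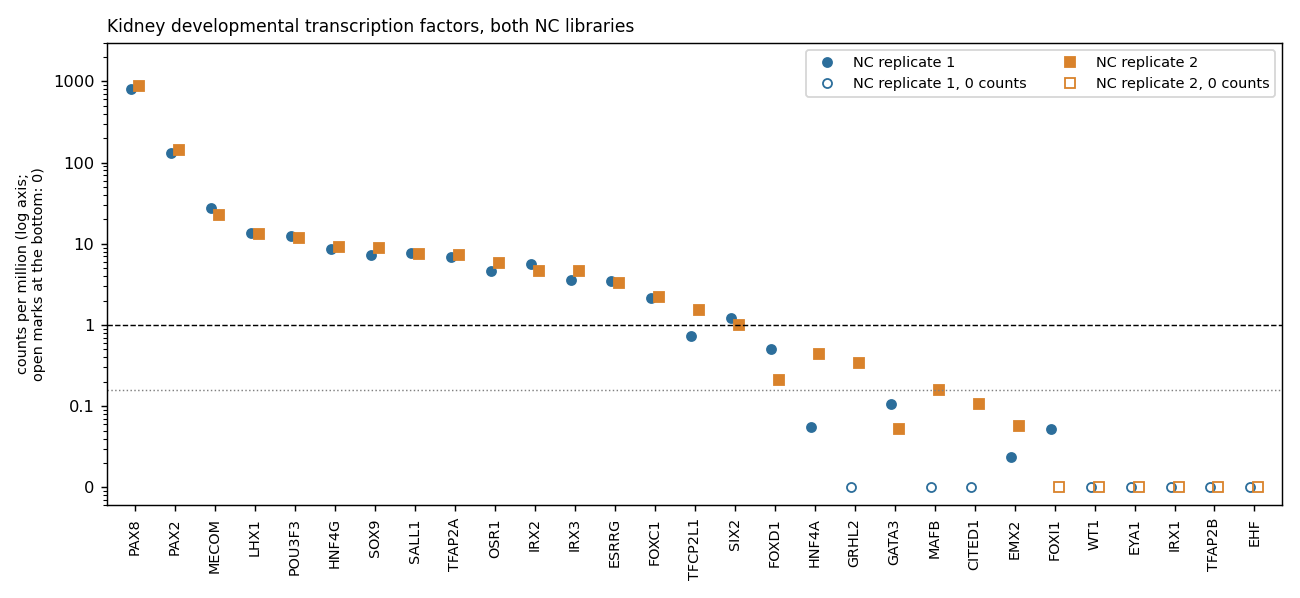
CPM of kidney developmental transcription factors in NC replicate 1 (circles) and NC replicate 2 (squares), on a log axis with 0 drawn as open marks at the bottom. The dashed line is 1 CPM and the dotted line is the level of 3 counts; PAX8 (812 and 870 CPM) and PAX2 (133 and 144 CPM) lie above the other factors shown on this axis, and 5 factors have 0 counts in both libraries.

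HOX genes, which encode positional homeodomain factors, were widely expressed: 36 of 39 passed. The HOXA cluster was complete, with 11 of 11 expressed, and HOXB had 9 of 10, HOXC 8 of 9 and HOXD 8 of 9. HOXB1 was undetected, and HOXC12 and HOXD12 were trace. HOXA9 was the highest, at 228 and 235 CPM, which is 111 and 114 CPM per kb. HOXA10 (42.4 and 45.5 CPM per kb) and HOXA7 (42.3 and 42.9) came next and overlapped between libraries, and HOXA3 followed at 16.0 and 17.1 CPM per kb. HOXC5 was 1 of 2 expressed list members that differed over 2-fold between NC libraries, at 1.01 and 2.88 CPM. Many HOXA and HOXB genes had expected counts that were not whole, so part of their reads was shared with other rows, and with the strand setting not given, reads of antisense transcripts in these clusters cannot be told apart from theirs.

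Markers of the proximal tubule were partly present: 15 of 35 were expressed, 12 were trace and 8 were undetected. The median member had 0.713 CPM. GGT1, the gamma-glutamyl transferase of the brush border, had 81.6 and 84.5 CPM. SLC4A4, the basolateral sodium bicarbonate cotransporter, had 80.6 and 69.1 CPM, and the endocytic adaptor DAB2 had 67.4 and 64.2 CPM. GATM, the first enzyme of creatine synthesis, had 21.1 and 21.3 CPM, and SLC3A1, a cystine transporter subunit, had 10.6 and 11.1 CPM.

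Many uptake and secretion genes of this segment were at trace or 0. LRP2, which encodes megalin, had 0 counts and 1 count. The organic anion and cation transporters SLC22A6, SLC22A8, SLC22A12 and SLC22A2 and the amino acid transporter SLC6A19 were undetected. AQP1, the water channel of this segment, lay below the threshold at 0.689 and 0.737 CPM. Other uptake and transport genes of the list passed at 1 to 10 CPM. Among them were CUBN (1.72 and 1.54 CPM), SLC13A3 (7.42 and 6.47 CPM), SLC17A1 (6.51 and 4.84 CPM) and SLC17A3 (5.30 and 6.21 CPM). In bulk RNA, fewer cells of a type and less RNA per cell cannot be told apart.

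Genes that mark injured or dedifferentiating tubule cells were expressed in 8 of 10 cases. SPP1 (osteopontin) had 1044 and 1043 CPM. HAVCR1, the injury receptor KIM-1, had 201 and 165 CPM, CLU (clusterin) had 163 and 176 CPM, and the ciliary doublecortin-domain gene DCDC2 had 167 and 151 CPM. PROM1 and LCN2 were trace. These 10 genes had a median of 18.4 CPM.

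Of 15 loop of Henle and distal tubule markers only 2 were expressed. CLDN16, a claudin of the paracellular magnesium pathway, had 430 and 385 CPM, and the magnesium channel TRPM6 had 1.79 and 1.64 CPM. UMOD (uromodulin), PVALB and TRPV5 were undetected, and the thiazide-sensitive cotransporter SLC12A3 lay at the threshold (1.12 and 0.96 CPM). In the collecting duct list 3 of 19 were expressed, namely SCNN1A (9.46 and 9.65 CPM), HSD11B2 (3.28 and 2.88 CPM) and AQP4 (1.75 and 1.26 CPM), while the vasopressin-regulated water channel AQP2 had 0 counts. In the podocyte list 5 of 10 passed, among them the actin-binding SYNPO (197 and 189 CPM). WT1 was undetected, and nephrin (NPHS1) had 0.347 and 0.324 CPM. The proximal tubule, loop of Henle and distal tubule, collecting duct and podocyte lists thus each had defining members at trace or 0. In the injured tubule list 8 of 10 passed. PAX8 and PAX2 of the renal lineage were high.

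**Figure D3:**
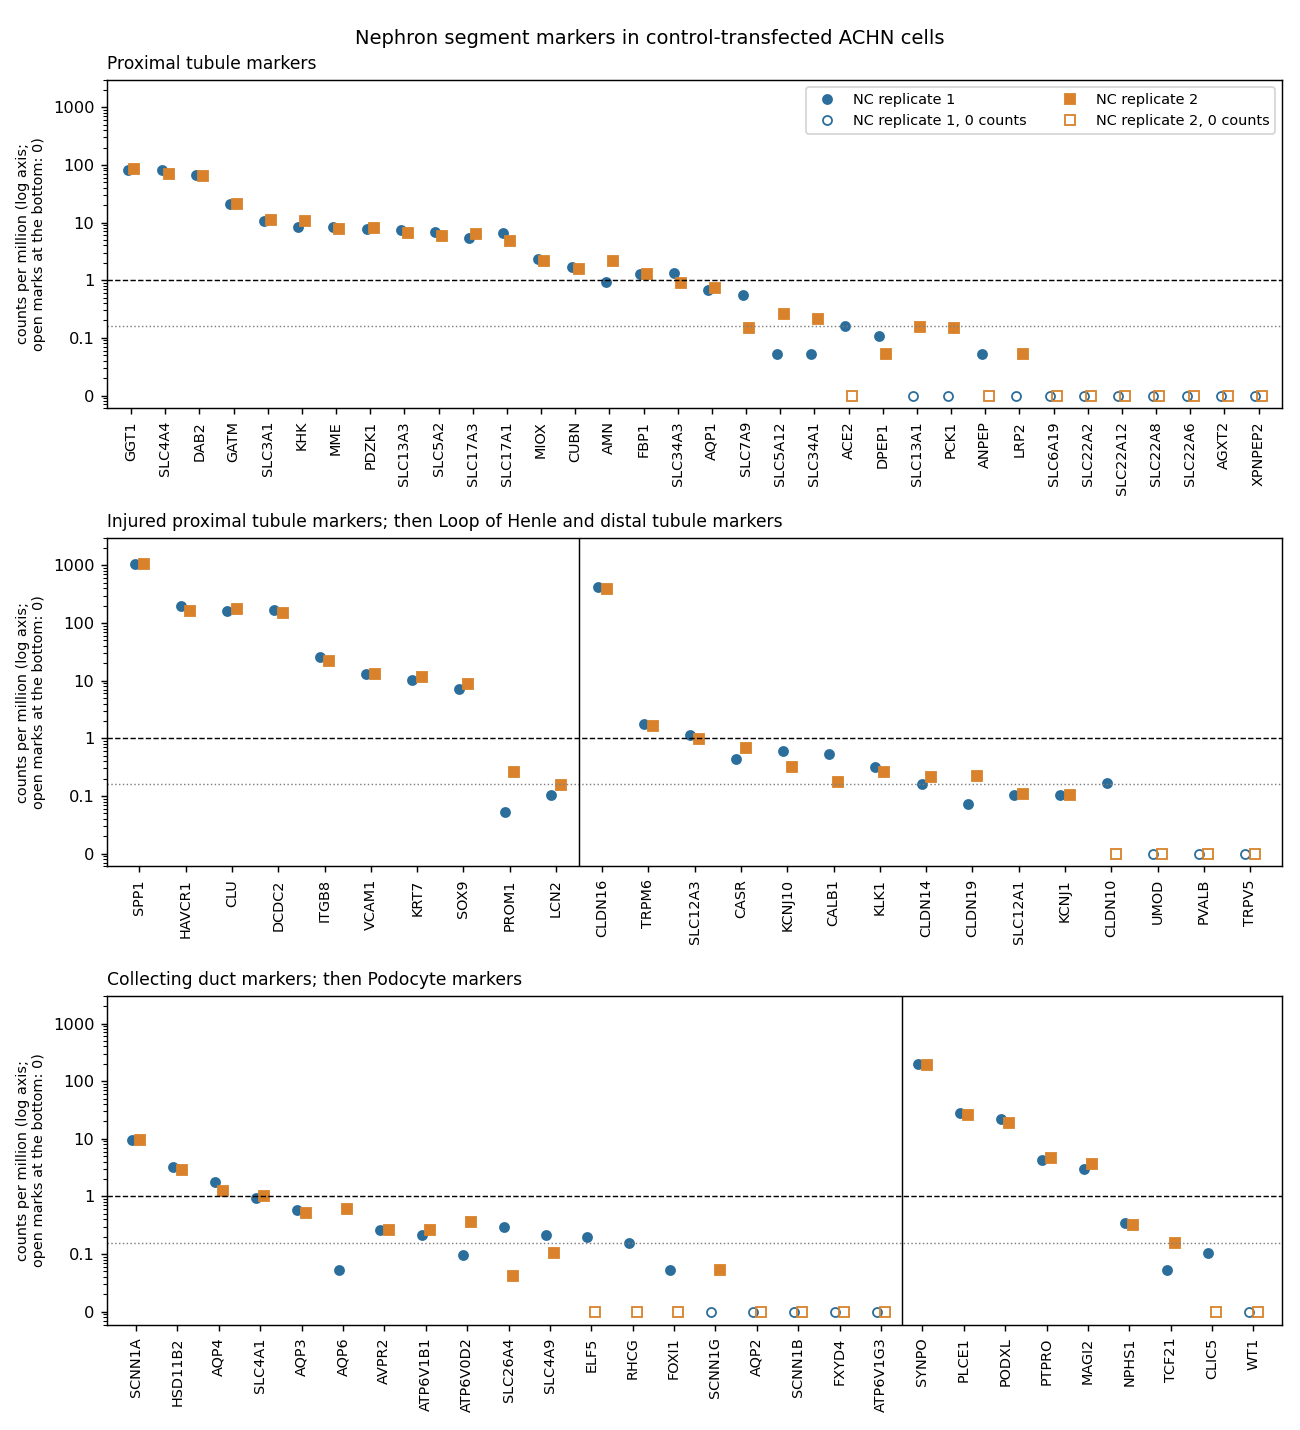
CPM of nephron segment markers in NC replicate 1 (circles) and NC replicate 2 (squares), ordered by mean within each list, on a log axis with 0 drawn as open marks at the bottom. The dashed line is 1 CPM and the dotted line is the level of 3 counts; SPP1 (1044 and 1043 CPM) and CLDN16 (430 and 385 CPM) lie near the top of the axis, while LRP2, UMOD and AQP2 lie at or near 0.

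Promoter sequences were set beside these levels, since neither the label nor the threshold used them. RefSeq (GRCh38.p14) gave 1 promoter for 10797 of the 18975 named protein-coding genes (56.9%), and the 250 bases before the start were read on the gene's strand. The median number of CpG dinucleotides was 24 in genes at 100 CPM or more, 22 at 10 to 100 CPM, 18 at 1 to 10 CPM, 7 in trace genes and 3 in undetected genes, against 18 in all. The letters TATAAA on either strand were found in 5.93%, 3.81%, 6.73%, 14.8% and 24.6% of these promoters in the same order, against 9.85% in all. Single genes departed from this order, among them PAX8 (high, 11 CpG), UGT2B7, a glucuronidating enzyme (44.6 and 47.6 CPM, 0 CpG), and LRP2 (1 count in 1 library, 21 CpG). UMOD (undetected, 2 CpG) followed it, between the quartiles of undetected genes (1 and 9). These 4 promoters are printed 5′ to 3′ with each CpG in capitals.
PAX8, chr2:113278922-113279171, minus strand: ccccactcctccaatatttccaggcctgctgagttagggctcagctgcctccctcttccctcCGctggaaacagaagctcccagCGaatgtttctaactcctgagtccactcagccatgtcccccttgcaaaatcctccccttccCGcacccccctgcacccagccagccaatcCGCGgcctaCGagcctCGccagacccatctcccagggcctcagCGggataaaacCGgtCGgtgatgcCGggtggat
UGT2B7, chr4:69096224-69096473, plus strand: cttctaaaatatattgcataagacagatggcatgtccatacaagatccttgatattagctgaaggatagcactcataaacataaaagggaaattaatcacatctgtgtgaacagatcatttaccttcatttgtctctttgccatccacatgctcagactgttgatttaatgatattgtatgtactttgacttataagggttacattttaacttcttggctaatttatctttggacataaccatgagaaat
LRP2, chr2:169362535-169362784, minus strand: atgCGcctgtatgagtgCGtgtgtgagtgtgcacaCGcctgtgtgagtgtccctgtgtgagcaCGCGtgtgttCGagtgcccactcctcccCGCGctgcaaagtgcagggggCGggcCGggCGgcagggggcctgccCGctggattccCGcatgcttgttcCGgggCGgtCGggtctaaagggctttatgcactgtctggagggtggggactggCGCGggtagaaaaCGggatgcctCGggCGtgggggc
UMOD, chr16:20352716-20352965, minus strand: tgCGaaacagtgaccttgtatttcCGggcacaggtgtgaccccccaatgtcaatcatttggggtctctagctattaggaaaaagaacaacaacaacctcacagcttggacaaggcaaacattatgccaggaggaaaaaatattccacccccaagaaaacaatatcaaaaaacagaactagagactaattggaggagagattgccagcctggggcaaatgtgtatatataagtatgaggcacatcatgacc
The 21 CpG of LRP2 lie between the quartiles of the highest band (18 and 30), and the 0 of UGT2B7 lie below the lower quartile of undetected genes (1).

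**Figure D4:**
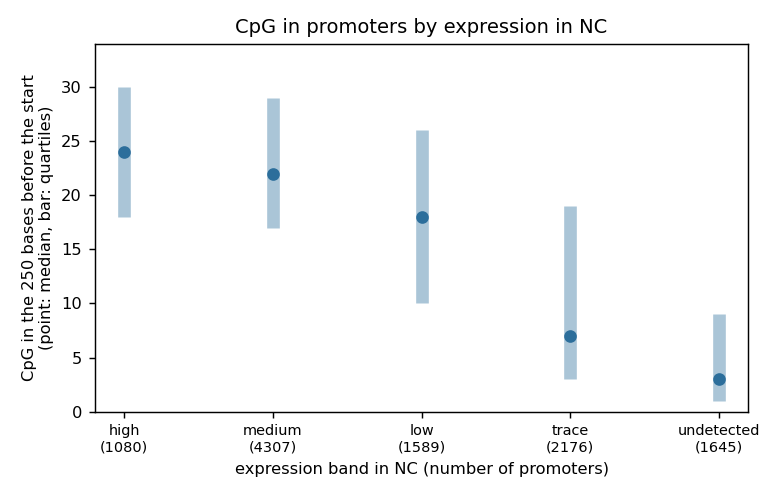
Number of CpG dinucleotides in the 250 bases before the start of 10797 protein-coding genes, by expression band in NC (high, 100 CPM or more; medium, 10 to 100; low, 1 to 10; trace; undetected). Points are medians and bars run between quartiles; the median is 24 in the high band and 3 in undetected genes, with wide overlap between neighbouring bands.

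Among 22 markers used to tell renal tumour subtypes apart 13 were expressed. VIM, the intermediate filament vimentin, had 1707 and 1720 CPM, keratin KRT19 had 258 and 267 CPM and the lipid droplet coat protein PLIN2 had 104 and 105 CPM. ANGPTL4 (39.1 and 46.9 CPM), CD70 (31.4 and 32.6 CPM) and CA12 (25.1 and 24.8 CPM) lay at 10 to 100 CPM. CA9, the carbonic anhydrase widely used as a clear cell marker, had 0.174 and 0.332 CPM, and NDUFA4L2, another hypoxia-responsive clear cell marker, had 0.847 and 1.21 CPM. Among markers used for other subtypes, CDH16 (15 and 15.1 CPM), AMACR (14.5 and 14.2 CPM) and KRT7 (10.3 and 11.4 CPM) were expressed, and FOXI1, RHCG and KIT were trace.

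In the hypoxia-inducible factor pathway 9 of 10 genes were expressed. HIF1A (189 and 178 CPM per kb) and EPAS1 (163 and 150 CPM per kb), the oxygen-regulated subunits, were above their partner ARNT (13.3 and 12.7 CPM per kb). VHL, the ubiquitin ligase subunit that marks both for degradation, had 39.2 and 38.7 CPM. Of the prolyl hydroxylases EGLN1 was highest (21.4 and 20.3 CPM per kb), then EGLN2 (8.71 and 10.7), and EGLN3, itself a hypoxia target, was lowest (0.880 and 0.719). Of 34 renal cancer driver genes 33 were expressed, among them MET (708 and 635 CPM). The exception was CDKN2A, the locus of the cell cycle inhibitor p16, at 0.288 and 0.491 CPM, while the related inhibitor CDKN2B had 20.4 and 20.7 CPM.

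Both epithelial and mesenchymal genes were expressed, 23 of 29 in that list. Fibronectin (FN1) had 2779 and 2512 CPM, the tight junction claudin CLDN1 had 1109 and 1085 CPM and the keratin KRT8 had 606 and 614 CPM. Neural cadherin (CDH2) had 37.4 CPM per kb and epithelial cadherin (CDH1) 8.11 CPM per kb, as means of 2 libraries. Of the ZEB, SNAI and TWIST transcription factors in this list, only TWIST1 was undetected. ZEB2 (57.5 and 56.2 CPM) and ZEB1 (30.8 and 28.3 CPM) were expressed. SNAI1 (4.77 and 5.05 CPM), TWIST2 (4.08 and 4.16 CPM) and SNAI2 (3.18 and 3.58 CPM) passed at lower levels.

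Of 58 receptor tyrosine kinases 30 were expressed, 26 were trace and 2, NTRK2 and EPHA8, were undetected. EGFR had 1495 and 1222 CPM, MET, the HGF receptor, had 708 and 635 CPM, FGFR1 had 368 and 366 CPM, AXL had 307 and 311 CPM and EPHA2 had 197 and 204 CPM. Within the EGF receptor family EGFR (152 and 124 CPM per kb) was above ERBB2 (15.9 and 16.1) and ERBB3 (4.0 and 4.05), and ERBB4 was trace. FGFR1 was above FGFR4 and FGFR2, and AXL above MERTK and TYRO3, with no overlap between neighbours. The vascular endothelial growth factor receptors FLT1, KDR and FLT4 and the receptors KIT, RET, ALK and PDGFRA were trace.

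Ligands were expressed in 31 of 47 cases, among them FGF2 (192 and 162 CPM), the stress cytokine GDF15 (141 and 162 CPM), the EGFR ligand TGFA (156 and 145 CPM), the activin subunit INHBA (138 and 130 CPM) and the AXL ligand GAS6 (121 and 130 CPM). FGF21, INHBB, EPGN and NRG3 were at 0. Transcripts of a receptor and of a ligand were present together for EGFR with TGFA, FGFR1 with FGF2 and AXL with GAS6.

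Nuclear receptors were expressed in 29 of 48 cases, none at 100 CPM or more. Expressed members included the orphan receptors NR2C1 (69.9 and 72.0 CPM) and NR2C2 (68.2 and 59.8 CPM), the clock repressor NR1D2 (63.3 and 56.6 CPM) and the retinoic acid receptor RARA (47.8 and 50.5 CPM). Each class of retinoid receptor had an unexpressed member: RARB was trace and RXRG was undetected. The progesterone receptor PGR had 0 counts. PPARG (18.4 and 21.4 CPM per kb) was above PPARD (5.10 and 5.60) and PPARA (1.98 and 1.82).

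G protein-coupled receptors passed in 38 of 55 cases, among them GPRC5A (343 and 373 CPM) and ADGRG1 (203 and 207 CPM). Receptors for TGF-beta family ligands passed in 13 of 14, with AMHR2 as the exception, and cytokine and death receptors in 31 of 37, among them IL6ST (251 and 216 CPM), LTBR (224 and 218 CPM) and TNFRSF10B (208 and 208 CPM). Of 10 Toll-like receptors 5 were expressed: TLR3, the receptor for double-stranded RNA, led at 4.15 and 3.89 CPM per kb, and TLR2 and TLR6 overlapped. TLR8 was undetected. Immune surface genes passed in 21 of 24 cases, among them B2M (482 and 486 CPM) and HLA-C (368 and 392 CPM), while HLA-DRA of the class II complex had 0.053 and 0 CPM. HLA class I genes have near-identical copies and counts that were not whole, so the split among them is uncertain, as it is for PCBP2, FTH1, GAPDH, LDHA and GLUD1.

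Of 14 facilitative glucose transporters 9 were expressed. SLC2A1 (GLUT1) had 384 and 378 CPM, which per kilobase was 9.32-fold the next, SLC2A3 (GLUT3). SLC2A2, the transporter of the healthy proximal tubule, was trace at 0.371 and 0.368 CPM, as was the urate transporter SLC2A9. Of 12 sodium-coupled carriers 3 were expressed, SLC5A6 for vitamins (64.8 and 68.8 CPM), SLC5A3 for inositol (55.5 and 48.2 CPM) and SLC5A2 (SGLT2, 6.89 and 5.86 CPM). SLC5A1 (SGLT1) was undetected. Monocarboxylate transporters passed in 11 of 14, with SLC16A1 (MCT1) highest at 35.3 CPM per kb in both libraries.

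Among phosphate carriers a form of other epithelia was high and the proximal tubule forms were low. SLC34A2, the sodium phosphate cotransporter known from lung and intestine, had 357 and 355 CPM, whereas SLC34A1 of the proximal tubule had 0.053 and 0.211 CPM and SLC34A3 had 1.32 and 0.895 CPM. The ubiquitous SLC20A1 had 345 and 358 CPM. Per kilobase SLC20A1 (102 and 106 CPM per kb) was above SLC34A2 (86.6 and 86.1). In plain CPM they overlapped, so this order rests on the reference lengths used, 3381 and 4122 nt.

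Amino acid transporters passed in 19 of 33, among them SLC7A5 (549 and 583 CPM) and SLC38A1 (574 and 499 CPM). Of 35 organic ion and drug transporters 20 were expressed, among them the efflux pumps ABCC1 (229 and 220 CPM) and ABCC3 (168 and 180 CPM). Among aquaporins AQP11 (5.72 and 5.42 CPM) and AQP4 passed, 6 of 14 were trace and 6 were undetected. Of the beta subunits of the sodium pump, ATP1B3 (54.5 and 59.4 CPM per kb) exceeded ATP1B1 (45.5 and 46.1). In plain CPM the order was the reverse, so it rests on the reference lengths used, 1811 and 2608 nt. FXYD2, the gamma subunit of the pump typical of kidney tubules, had 82.0 and 86.0 CPM. The chloride-bicarbonate exchanger SLC4A2 had 329 and 337 CPM, and SLC12A1, the loop diuretic target, was trace.

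Of 36 glycolysis genes 25 were expressed, with large differences between forms of the same enzyme. ALDOA had 1391 and 1441 CPM, and ALDOC lay at the threshold. LDHB (801 and 850 CPM per kb) and LDHA (777 and 762) were close. They did not overlap between libraries, but their order rests on the reference lengths used, 1538 and 2416 nt. ENO1 exceeded ENO3 by 26.9-fold per kilobase. HK1 (55.6 and 58.8 CPM per kb) and HKDC1 (55.1 and 54.8) were at nearly the same level, above HK2 (8.58 and 7.77), while HK3 was undetected. PKLR, the liver and kidney pyruvate kinase, was undetected beside PKM.

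In the list of gluconeogenesis and fructose genes 8 of 13 were expressed, with a median of 9.31 CPM. Its low members included PCK1 (0 and 0.151 CPM), G6PC (0.164 and 0.168 CPM) and FBP1 (1.27 and 1.26 CPM). By contrast AKR1B1, the aldose reductase that makes sorbitol, had 2053 and 2262 CPM.

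Among 28 glutamine, arginine and urea cycle genes 21 were expressed, including the mitochondrial transaminase GOT2 (239 and 245 CPM) and GLUD1 (215 and 210 CPM). CPS1, the entry enzyme of the urea cycle, had 78.1 and 70.9 CPM, whereas OTC, the next enzyme, had 0 counts. All 23 measured TCA cycle genes were expressed, among them IDH1 (302 and 315 CPM) and ME3 (19.7 and 21.0 CPM). SDHD could not be read, since several rows share that name.

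Serine and one-carbon genes passed in 20 of 24, among them MAT2A (533 and 529 CPM), SHMT2 (294 and 308 CPM) and PSAT1 (264 and 252 CPM). MAT1A, BHMT2, GNMT and BHMT, typical of liver, were the 4 that did not. Lipid genes passed in 40 of 50, among them the desaturase SCD (1333 and 1193 CPM), fatty acid synthase FASN (946 and 973 CPM) and ACLY (882 and 830 CPM), while FABP1, FABP4 and FABP7 were undetected. NNMT, which methylates nicotinamide, had 339 and 374 CPM, and the tryptophan-degrading enzymes IDO1 and TDO2 were at 1 count in 1 library and at 0. In drug metabolism 31 of 52 passed, among them NQO1 (455 and 511 CPM), GSTP1 (419 and 449 CPM) and ALDH1A1 (250 and 253 CPM). Of 13 renal endocrine genes 7 were expressed; erythropoietin (EPO) had 0 counts.

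Of 80 markers of other cell types 21 were expressed, 43 were trace and 16 were undetected, and the lists differed. Leukocyte markers passed in 2 of 15, endothelial in 1 of 9, hepatocyte in 2 of 16 and erythroid in 0 of 8. Those that passed were CD68 and ITGAM (2.60 and 2.95 CPM) for leukocytes and ESAM (3.06 and 2.31 CPM) for endothelium. For hepatocytes they were SERPINA1 (13.7 and 14.6 CPM) and AMBP (10.2 and 12.9 CPM). PTPRC (CD45) had 0.11 and 0 CPM, CDH5 had 0 and 0.0526 CPM, ALB had 0 and 0.0526 CPM and HBB had 0 counts in both. The summed level was 20.3 and 21.7 CPM for the leukocyte list, of which CD68 had 15.7 and 17.3 CPM, and 4.19 and 4.03 CPM for the endothelial list. In the fibroblast list, 5 of 11 passed with a sum of 774 and 798 CPM. THY1 had 666 and 683 CPM of that, and COL1A1 (60.4 and 68.4 CPM), ACTA2 (31.4 and 33.2 CPM), PDGFRB (11.5 and 10.5 CPM) and COL1A2 (1.74 and 1.55 CPM) passed too, while DCN, LUM, FAP, POSTN and PDGFRA were trace. Mesothelial markers passed in 5 of 10: LRRN4 had 73.0 and 59.1 CPM, UPK3B, BNC1, MSLN and CALB2 passed too, and WT1 and ITLN1 were at 0. Neuronal markers passed in 6 of 11, among them the tubulin TUBB3 (85.6 and 83.4 CPM), the synaptic vesicle protein SYT1, the neurofilament NEFL and the microtubule-associated MAP2, with STMN2 and DCX at 0.

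The same genes were then followed into the libraries that received an siRNA against MEX3A. Both comparisons use the same 2 NC libraries, so they are set side by side only, and the difference between the siRNAs was not tested. Of 18583 genes tested with edgeR's quasi-likelihood test, 52.9% were called at an adjusted p under 0.05 with siMEX3A_1 (27.0% higher, 25.9% lower) and 50.9% with siMEX3A_2 (25.2% higher, 25.7% lower). Since so many genes were called, a called member is not unusual. The median log2 fold change of all genes was -0.0122 and -0.00231.

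Few genes went from 0 counts in NC to expressed with an siRNA, while more passed the threshold from trace. The genes expressed both in NC and with an siRNA were 97.4% of the 13287 expressed with siMEX3A_1. With siMEX3A_2 they were 97.1% of 13392. Of the 13524 genes expressed in NC, 12944 (95.7%) were also expressed with siMEX3A_1 and 13010 (96.2%) with siMEX3A_2, and no gene expressed in NC fell to 0 counts in both libraries of an siRNA. From 0 counts in NC, LRGUK (1.20 and 1.04 CPM) and the read-through BORCS7-ASMT (1.12 and 1.13 CPM) passed the threshold with siMEX3A_1, and DDIT4-AS1 (1.73 and 1.89 CPM) with siMEX3A_2. None of the 94 undetected list members became expressed with either siRNA. Of the 695 expressed list members 657 stayed expressed with siMEX3A_1 and 660 with siMEX3A_2. A further 14 list members that were trace in NC were expressed with siMEX3A_1, and 12 with siMEX3A_2.

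HOXA genes were mostly lower. With siMEX3A_1, 8 of the 11 were lower and 2 higher, with a median log2 fold change of -0.90, and with siMEX3A_2 all 11 were lower, with a median of -0.88. HOXA9 had 228 and 235 CPM in NC, 147 and 143 CPM with siMEX3A_1 and 127 and 122 CPM with siMEX3A_2 (log2 fold change -0.62, SE 0.05, adjusted p = 7.2e-06, and -0.88, SE 0.05, adjusted p = 1.4e-06). HOXA7 had 85.3 and 86.5 CPM in NC, 36.0 and 35.3 CPM with siMEX3A_1 and 45.7 and 43.9 CPM with siMEX3A_2 (-1.21 and -0.92). In both genes all 4 siRNA libraries were below both NC libraries. HOXA4 was called in opposite directions, at 0.36 with siMEX3A_1 and -0.76 with siMEX3A_2. In the HOXB cluster 5 of 9 tested genes were higher and 0 lower with siMEX3A_1, and 5 were higher and 2 lower with siMEX3A_2. Only HOXB6 (0.60 and 0.45) and HOXB13 (0.59 and 0.75) were called higher with both, and HOXB9 was called in opposite directions (0.70 and -0.82).

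**Figure D5:**
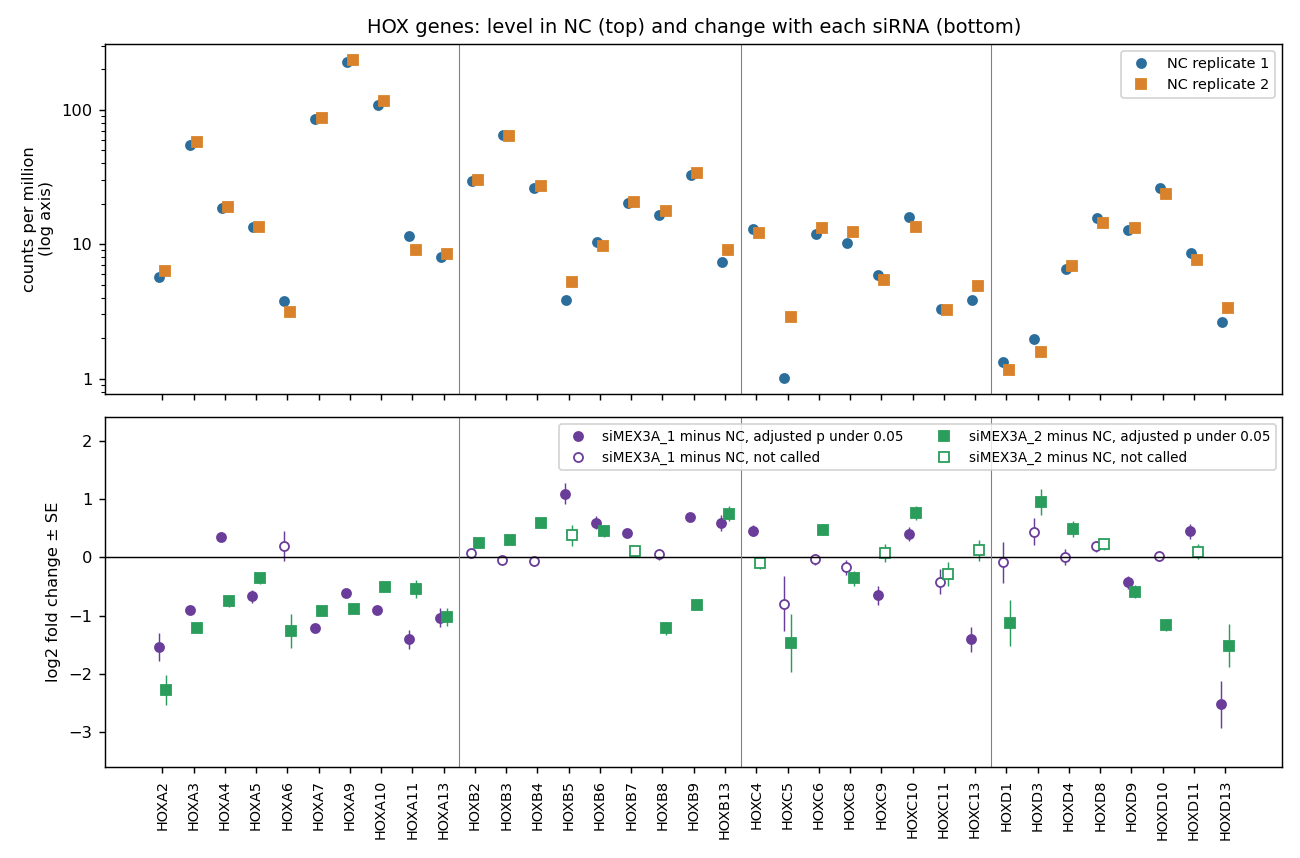
HOX genes tested, in cluster order. Top: CPM in the 2 NC libraries on a log axis; bottom: log2 fold change against NC with its SE for siMEX3A_1 (circles) and siMEX3A_2 (squares), filled where the adjusted p is under 0.05. Every HOXA gene shown lies below 0 with siMEX3A_2 and 8 are called lower with siMEX3A_1. In the HOXB cluster 5 genes are called higher with siMEX3A_1 and 5, only partly the same, with siMEX3A_2.

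Of the 32 kidney developmental factors 20 passed the filter on low counts and were tested. With siMEX3A_1, 9 were lower and 5 higher, and with siMEX3A_2, 10 were lower and 1, MECOM, was higher. The count of 9 fell to 4 or 5 without any 1 of the libraries compared and to 5 with DESeq2. PAX8 had 638 and 615 CPM with siMEX3A_1 and 601 and 552 CPM with siMEX3A_2, below both NC libraries (log2 fold change -0.36 and -0.53). PAX2 fell to 93.0 and 84.9 CPM with siMEX3A_1 and to 36.4 and 32.7 CPM with siMEX3A_2 (-0.58, SE 0.07, adjusted p = 0.00011, and -1.99, SE 0.08, adjusted p = 1.5e-07). LHX1 and POU3F3 rose with siMEX3A_1 (1.75 and 1.53) and fell with siMEX3A_2 (-0.60 and -1.20).

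EPAS1, the HIF-2 alpha subunit, was called in opposite directions: 840 and 774 CPM in NC, 1299 and 1401 CPM with siMEX3A_1 and 161 and 162 CPM with siMEX3A_2 (0.80 and -2.30, adjusted p = 2.0e-06 and 2.3e-08). CLDN16 was lower with siMEX3A_1 (276 and 308 CPM, -0.42) and higher with siMEX3A_2 (930 and 946 CPM, 1.22), and HAVCR1 was called lower with siMEX3A_2 (62.6 and 63.8 CPM, -1.52) and not with siMEX3A_1 (118 and 161 CPM, -0.33, adjusted p = 0.072). Without NC replicate 2 (-0.47, adjusted p = 0.0421) or siMEX3A_1 replicate 2 (-0.57, adjusted p = 0.00126) HAVCR1 was called with siMEX3A_1 as well. Of 19 proximal tubule markers tested 4 were higher and 6 lower with siMEX3A_1, and 4 higher and 9 lower with siMEX3A_2. Of 5 collecting duct markers tested 1 was higher and 2 lower, and 2 were higher and 2 lower. The fructose kinase KHK fell with both siRNAs (-2.53 and -1.93), as did SCNN1A (-1.59 and -1.39), HSD11B2 (-1.82 and -5.15) and CDH16 (-2.55 and -1.49). In the same proximal tubule and collecting duct lists the dicarboxylate transporter SLC13A3 (1.32 and 1.17) and the proton pump subunit ATP6V0D2 (1.71 and 1.87) rose with both. ATP6V0D2 stayed low: 0.0959 and 0.364 CPM in NC, 0.882 and 0.627 CPM with siMEX3A_1 and 1.14 and 0.634 CPM with siMEX3A_2. With siMEX3A_2 HSD11B2 had 0.106 and 0.0531 CPM, below the level of 3 counts, so the size of its fold change there is uncertain. SLC34A2 had 86.2 and 85.5 CPM with siMEX3A_1 and 58.6 and 57.5 CPM with siMEX3A_2 (-1.99 and -2.60), the largest fold change among the 5 genes of its list with the highest CPM. CDH1 fell with both siRNAs: it had 41.8 and 37.4 CPM in NC, 1.94 and 3.18 CPM with siMEX3A_1 and 2.59 and 3.76 CPM with siMEX3A_2 (-3.89 and -3.62).

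Among receptor tyrosine kinases 37 of 58 were tested, with 9 higher and 12 lower after siMEX3A_1 and 5 higher and 21 lower after siMEX3A_2. AXL had 423 and 419 CPM with siMEX3A_1 and 121 and 113 CPM with siMEX3A_2 (0.51 and -1.38), ERBB3 fell by 2.50 on the log2 scale with siMEX3A_2, and EGFR was not called with siMEX3A_1 (1359 and 1724 CPM, adjusted p = 0.10). Growth factor ligands were called higher in 19 and lower in 4 of 36 tested with siMEX3A_1, and in 14 and 5 with siMEX3A_2. INHBA (1.88 and 1.69) and AREG (2.50 and 1.87) rose with both. Nuclear receptors were higher in 18 and lower in 7 of 35 tested, and in 14 and 5.

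In the glutamine and serine lists more members were lower than higher. Of 22 glutamine, arginine and urea cycle genes tested 15 were lower with siMEX3A_1 and 17 with siMEX3A_2, with 4 and 2 higher. Brain-type creatine kinase CKB went from 42.7 and 44.5 CPM in NC to 6.05 and 7.0 CPM and to 6.21 and 5.63 CPM (-2.68 and -2.86). Serine and one-carbon genes were lower in 12 and 13 of 21 tested and higher in 3 and 0. In glycolysis 15 of 26 were higher and 6 lower with siMEX3A_1, and 5 were higher and 17 lower with siMEX3A_2. HK2 rose by 2.02 with siMEX3A_1 (174 and 193 CPM), and LDHA fell by 1.05 on the log2 scale with siMEX3A_2 (886 and 890 CPM). AKR1B1 fell by 1.13 on the log2 scale with siMEX3A_2 (997 and 953 CPM). Of 26 markers of other cells tested 5 were higher and 10 lower with siMEX3A_1, and 5 higher and 7 lower with siMEX3A_2. ACTA2 (1.07 and 1.23), CD68 (0.96 and 0.94) and MAP2 (1.95 and 2.91) rose with both siRNAs. Members of the same lists differed. Of 8 neuronal markers tested 3 were higher and 1 lower with siMEX3A_1, and 2 higher and 3 lower with siMEX3A_2. SNAP25 fell with both (-2.14 and -0.73), and TUBB3 was called in opposite directions (1.16 and -0.87). The leukocyte marker ITGAM fell with siMEX3A_1 (-1.75) and was not called with siMEX3A_2 (0.09). THY1 fell with both siRNAs (-1.0 and -1.28), and AMBP, a liver and proximal tubule secreted protein, fell from 10.2 and 12.9 CPM to 0.365 and 0.522 CPM with siMEX3A_1 (-4.62) and to 3.29 and 3.61 CPM with siMEX3A_2 (-1.72).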

How the data were processed

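RNA-seq was measured in 6 libraries of ACHN cells, 2 each in the groups NC, siMEX3A_1 and siMEX3A_2, and samples were grouped by their labels. The deposited tables hold expected counts per gene, per the file headers and values, over 60409 rows. Per the submitters' processing notes the tools were STAR and RSEM and the builds hg19 and GRCh37; their versions, roles and strand setting are not given in the sources here. The same deposited tables hold the authors' log2 fold changes, p-values and scores (mean normalized counts and test statistics), which were not used here. There were 0 columns without a sample.

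Expected counts were divided by library totals to give CPM. Transcript lengths came from GENCODE release 29, 1 transcript per gene. Rows with shared, clone-based or date names were not named, leaving 36517 genes. Expected counts were rounded before tests. The siRNA groups were each compared with NC in 1 fit over the 6 libraries with edgeR 4.0.16 (quasi-likelihood test, TMM scaling, filter on low counts, Benjamini-Hochberg adjustment over 18583 genes), run in R 4.3.3 and tested on simulated data. Alternatives used DESeq2 1.42.0, other filters and scalings, a replicate block and leaving out each library. Levels in NC were not tested, since only 1 condition was described.

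The members and lists were chosen with earlier results of these data known. Named genes were the 5 highest of each list, any member of the MEX3, PAX, kidney factor, tumour subtype and HIF lists, trace or undetected members of closed families, the 15 highest genes, and up to 3 called members of a list by lowest p for each siRNA. Other genes named, among them absent markers of tissues and segments, absent ligands and enzymes, lower members of ordered families, CPS1, CDH2 and UGT2B7, and markers named beside a list's count for the opposite direction or the other expressed members, were chosen after their values were seen. Promoters were read from RefSeq, GRCh38.p14, a build other than that of the counts, and PAX2 had no entry. Some genes are not reported here and are not drawn, while list counts include them.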

Additional observations from a re-analysis of the deposited data

How the results depend on the processing

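The number of genes expressed in NC, 13524, was 14670 at 0.5 CPM, 11070 at 5 CPM and 12010 per kilobase, and 13801 to 13846 with 1 NC library left out. Among the 51 lists, 25 counts of expressed members moved by more than 1.5 times over 8 settings, 13 of them at 5 CPM; smaller changes were not counted. The 9836 genes called with siMEX3A_1 became 8093 with DESeq2, and the 9457 with siMEX3A_2 became 7499. Leaving out 1 library gave 8393 to 9087 and 7274 to 8064. No named gene reversed in 11 settings. Of 62 named genes called with siMEX3A_1, 9 lost the call in some setting (among them ABCC3, AKR1B1, ATP1B1, ERBB3, FGFR4, LDHA, MEX3A and SLC2A3), and of 67 with siMEX3A_2, 6 did (GATM, HIF1A, HK2, HOXD13, PGAM1 and PLIN2). The cause was not tested.

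Replicate numbers share only a number: deviations of same-numbered libraries correlated at -0.11 between NC and siMEX3A_1 and 0.03 between NC and siMEX3A_2. With a replicate block 9328 and 8932 genes were called. With the numbers of siMEX3A_1 crossed, an alternative chosen after seeing the data, 9982 and 9618 were called. Depth limits levels below 0.159 CPM, the level of 3 counts.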

Other observations

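IGFN1, an immunoglobulin-like and fibronectin domain gene known from skeletal muscle and in none of the lists, was the 22nd highest named gene in NC by CPM, at 2458 and 2561 CPM. It was chosen after its values were seen. It was lower with siMEX3A_1 (log2 fold change -0.63, edgeR adjusted p = 4.0e-07) and not called with siMEX3A_2 (-0.01, adjusted p = 0.87). Of all named genes, 599 reached 1 CPM in only 1 of the 2 NC libraries, and 42 of the 13524 expressed genes differed over 2-fold between them.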
